A study of Bos taurus with 12 samples.

Results

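The interferon stimulated genes described here are 44 genes named for the known response of cells to type I interferon. No level on these arrays entered the rule, but the genes were chosen with earlier results of these data known. Of the 44 genes, 42 were matched to 53 transcripts of a custom bovine array, and DDX60 and BST2 were not analysed here. The array measured 26323 transcripts in all. Where a gene had several transcripts, which was so for 10 genes, it was described by its transcript with the highest mean signal.

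The samples were endometrial biopsies, taken between the caruncles of the uterine horn on the side of the corpus luteum on Day 15 of the cycle, after synchronisation of oestrus. The 4 old females (OF) were 13 to 14 years old and nulliparous, and the 4 young females (YF) were 4 to 5 years old and primiparous. All OF and YF were Holstein somatic clones of a single donor cow, so the animals of both groups shared a nuclear genome, and age and parity cannot be told apart. Biopsies of 4 contemporary cows were also hybridized. The sources used here give neither the age nor the parity of these cows, nor whether they were clones, and the labels state that cow 1111 was excluded for a divergent phenotype, so 3 contemporary cows entered the tests and the values of cow 1111 are given beside them. Each animal was 1 replicate on 1 array.

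In ruminants the signal of pregnancy is interferon tau, a type I interferon that the elongating conceptus secretes into the uterine lumen around this stage. It binds the receptor made of IFNAR1 and IFNAR2, and the kinases JAK1 and TYK2 then pass the signal on to transcription factors, among them STAT2 and IRF9, which bind interferon stimulated response elements in the promoters of its target genes. Many of the targets are antiviral, and several of them, such as ISG15, MX1, MX2, OAS1 and RSAD2, are widely used as markers of the response of the bovine endometrium to a conceptus. The females here were cyclic, so the values are levels without that signal.

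A level is the log2 of the processed Cy-3 intensity of a transcript minus the log2 of the 75th percentile of its array, so a level of 0 is the intensity of that percentile. The percentile lay between an intensity of 968 and 1597. On each array 71.6% to 74.9% of probes exceeded background and 0 were saturated. The arrays lay on 2 slides, and slide 1 held OF 0245, YF 1070, YF 1072 and contemporary cow 1111. OF 2258 stood apart from all other arrays on the first principal component, which held 40.2% of the variance. Its summed level of 11 smooth muscle markers reached 1056, against 24.4 to 67.1 in YF and 29.4 to 49.3 in the contemporary cows used. OF 0234 was also high in these markers, with a mean deviation of 2.38 on the log2 scale, against 4.02 in OF 2258 and at most 0.11 in all other animals. All 10 epithelial markers were above background on every array, and their summed level was lowest in OF 2258, at 15.2.

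Each transcript was read by probes of 60 bases, and 6 of the probes are printed from 5′ to 3′ because the reading of the results depends on them. The ISG15 and IFI35 probes belong to genes with some of the widest and the narrowest spread between animals. The OAS1X probes are those of the transcript with an accession of OAS1X that the array calls OAS1Z. The IFIT1 probes are shown because both overlap on the transcript, and the capitals mark the 26 bases that they share, so that they are not separate readings of it. Probes of other genes, among them RSAD2, MX2, USP18 and PARP9, also overlap and are likewise not separate readings.
ISG15 probe 2: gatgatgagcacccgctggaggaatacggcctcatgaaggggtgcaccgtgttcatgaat
IFI35 probe 2: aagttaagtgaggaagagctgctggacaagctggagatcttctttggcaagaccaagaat
OAS1X probe 1: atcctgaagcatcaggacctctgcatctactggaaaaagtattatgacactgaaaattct
OAS1X probe 2: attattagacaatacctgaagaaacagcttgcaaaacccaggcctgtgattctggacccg
IFIT1 probe 1: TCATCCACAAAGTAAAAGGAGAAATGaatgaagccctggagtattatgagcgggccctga
IFIT1 probe 2: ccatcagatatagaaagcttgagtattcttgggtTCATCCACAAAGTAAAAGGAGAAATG

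Most of the interferon stimulated genes were measurable in cyclic endometrium. Of the 42 genes, 37 were above background on all 12 arrays, 5 on some arrays and 0 on none. Those measured everywhere were all 6 genes of ISG15 and its enzymes, all 5 IFI genes, all 4 oligoadenylate synthetases, all 4 of PARP9, PARP12, PARP14 and DTX3L, and 5 of the 6 sensors of foreign nucleic acid. The 5 genes not measured everywhere were IFIT1, MX2, CMPK2, SAMD9 and ZBP1. IFIT1, which binds RNA without the cap methylation of the host, was above background on 4 arrays, those of OF 0233, OF 0234, YF 1070 and contemporary cow 1129. MX2, a GTPase related to MX1, was above background on 9 arrays (2 OF, 3 YF and all 4 contemporary cows). CMPK2, a mitochondrial nucleotide kinase, was above background in 3 animals of each group, and SAMD9 in 1 OF, 3 YF and 2 contemporary cows. ZBP1, a sensor of Z-form nucleic acid, was above background on 11 arrays and not in OF 2258. Intensities of different probes are not on a common scale, so the levels of different genes are not set against each other.

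**Figure D1:**
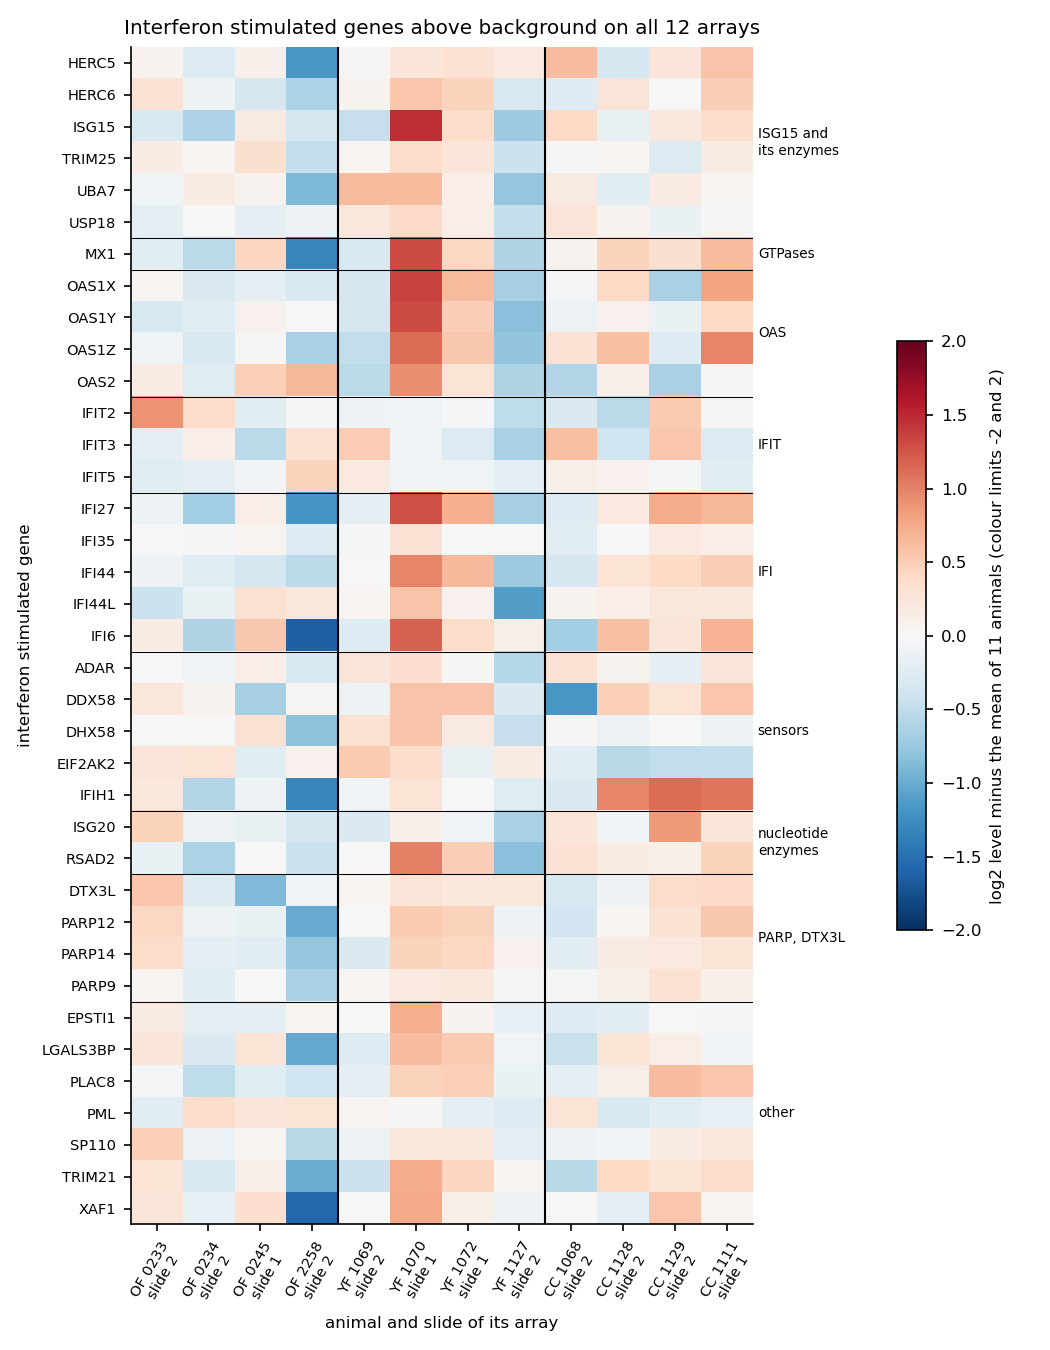
Level of each interferon stimulated gene in each of the 12 animals, as its deviation from the gene's own mean over the 11 animals used in the tests (log2), with genes in rows by role and animals in columns by group. The column of YF 1070 is the highest of the 12 animals in 22 of the 37 genes measured on all arrays, and that of OF 2258 the lowest in 17.

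The ubiquitin-like protein ISG15 (ENSBTAT00000019573, chromosome 16, 52714627 to 52715665 in UMD3.1), which is joined to other proteins, had levels of 0.64, 0.33, 1.13 and 0.59 in OF 0233, 0234, 0245 and 2258. In YF 1069, 1070, 1072 and 1127 its levels were 0.48, 2.43, 1.32 and 0.22, and in contemporary cows 1068, 1128 and 1129 they were 1.35, 0.80 and 1.15, with 1.30 in cow 1111. The highest and the lowest of the 12 values were both those of YF, so the YF spanned the whole range of OF. The mean level was 0.67 ± 0.34 in OF (SD, n = 4), 1.11 ± 1.0 in YF (SD, n = 4) and 1.10 ± 0.28 in the contemporary cows (SD, n = 3). The difference between OF and YF was -0.44 ± 0.46 (SE; limma, adjusted p = 0.999).

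MX1, a GTPase that blocks viruses inside the cell, followed the same animals. Its levels were 1.64, 1.33, 2.30 and 0.55 in the 4 OF in the order above, 1.57, 3.18, 2.29 and 1.27 in the 4 YF, and 1.95, 2.32 and 2.19 in the contemporary cows, with 2.49 in cow 1111. YF 1070 was again the highest animal, OF 2258 was the lowest, and the groups overlapped. The difference between OF and YF was -0.62 ± 0.49 (SE; limma, adjusted p = 0.999). MX2 lies next to MX1 on chromosome 1, and its levels, which were near background, were -6.24, -7.18, -6.45 and -6.29 in OF, -6.69, -5.80, -6.47 and -6.55 in YF, and -7.12, -6.14 and -5.82 in the contemporary cows, with -6.72 in cow 1111.

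RSAD2 encodes viperin, a radical SAM enzyme that makes a chain-terminating nucleotide. Its levels were -2.39, -2.89, -2.27 and -2.70 in OF, -2.25, -1.26, -1.77 and -3.10 in YF, and -1.98, -2.11 and -2.15 in the contemporary cows, with -1.80 in cow 1111. The YF held both the highest and the lowest value, YF 1070 and YF 1127. OF had a mean of -2.56 ± 0.28 and YF one of -2.10 ± 0.78 (SD of 4 animals each), a difference of -0.47 ± 0.37 (SE; limma, adjusted p = 0.999). With the arrays of slide 2 alone the difference was 0.02.

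The oligoadenylate synthetases make short oligoadenylates in response to double-stranded RNA, and cattle have several OAS1 genes, which lie with OAS2 between 63611774 and 63678163 on chromosome 17. OAS1Y had levels of 1.68, 1.77, 2.07 and 2.0 in OF, 1.65, 3.30, 2.48 and 1.16 in YF, and 1.87, 2.08 and 1.86 in the contemporary cows, with 2.38 in cow 1111. OAS1X had levels of -2.47, -2.81, -2.72 and -2.84 in OF, -2.86, -1.18, -1.90 and -3.20 in YF, and -2.55, -2.13 and -3.17 in the contemporary cows, with -1.75 in cow 1111. OAS1Z had levels of -4.78, -5.00, -4.68 and -5.35 in OF, -5.19, -3.58, -4.15 and -5.49 in YF, and -4.40, -4.10 and -4.96 in the contemporary cows, with -3.72 in cow 1111. In all 3 genes YF 1070 was the highest and YF 1127 the lowest of the 12 animals, so that OF lay inside the range of YF. The SD between animals was 0.19 in OF and 0.94 in YF for OAS1Y, and 0.17 in OF and 0.92 in YF for OAS1X. The differences between OF and YF were -0.26 ± 0.42 for OAS1Y, -0.43 ± 0.41 for OAS1X and -0.35 ± 0.41 for OAS1Z (SE; limma, adjusted p = 0.999 for each). With the arrays of slide 2 alone all 3 were of the opposite sign, at 0.41, 0.32 and 0.30. The annotated span of the OAS1X transcript holds that of OAS1Z, but no probe sequence was shared between them.

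IFI27, a mitochondrial and nuclear membrane protein, had levels of 2.84, 2.27, 3.07 and 1.76 in OF, 2.77, 4.24, 3.65 and 2.28 in YF, and 2.68, 3.14 and 3.68 in the contemporary cows, with 3.61 in cow 1111. IFI6, which acts on the endoplasmic reticulum and mitochondria, had levels of 4.14, 3.40, 4.54 and 2.36 in OF, 3.74, 5.18, 4.37 and 4.12 in YF, and 3.30, 4.60 and 4.24 in the contemporary cows, with 4.69 in cow 1111. YF 1070 was the highest and OF 2258 the lowest animal in both genes, and the groups overlapped. USP18, the protease that removes ISG15 and damps the receptor, varied less, with levels of -1.28, -1.10, -1.29 and -1.20 in OF, -0.87, -0.71, -0.97 and -1.58 in YF, and -0.84, -1.02 and -1.24 in the contemporary cows, with -1.13 in cow 1111. The level of USP18 was above all 4 OF in YF 1069, 1070 and 1072 and below all of them in YF 1127.

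**Figure D2:**
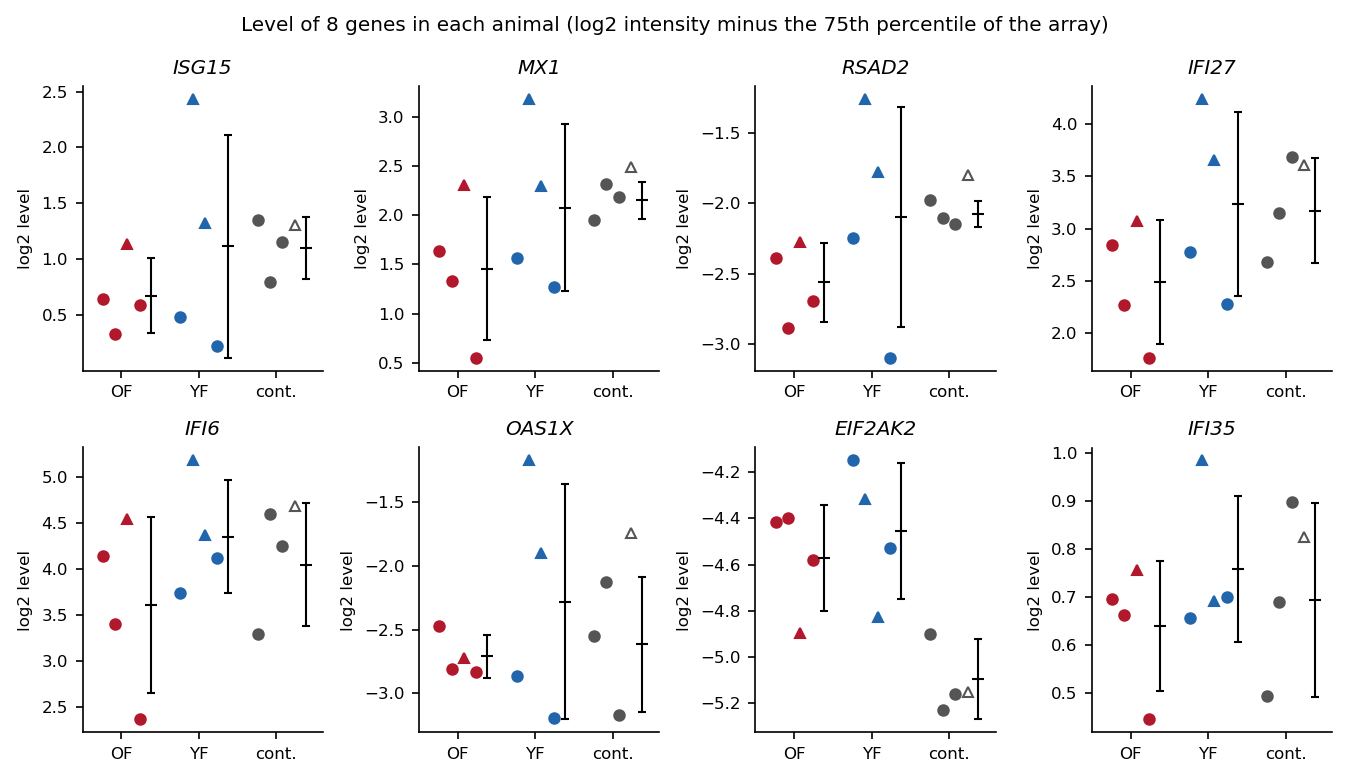
Level of selected interferon stimulated genes in each animal (log2 of intensity over the 75th percentile of the array) by group, with circles for arrays of slide 2, triangles for arrays of slide 1, an open symbol for contemporary cow 1111 and bars for the mean and SD of the animals used in the tests. For ISG15 the YF run from 0.22 to 2.43, which takes in all 4 OF.

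The same animals recurred across the genes. YF 1070 was the highest of the 12 animals in 22 of the 37 genes measured on all arrays (59.5%, against 4.34% of all transcripts measured on all arrays) and the lowest in 0. Within YF it was the highest in 27 of 37 (73%, against 19.2% of all transcripts). YF 1127 was the lowest YF in 28 of 37 genes (75.7%, against 35.3%) and the lowest of all 12 animals in 11 (29.7%, against 13.6%). OF 2258 was the lowest of the 12 animals in 17 of 37 genes (45.9%, against 20.1%) and the lowest OF in 22 (59.5%, against 34.9%). The contemporary cow 1111 was the highest of its group in 14 of 37 (37.8%, against 21.9%). These counts describe the animals, and since genes are not independent replicates they carry no test.

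Averaged over the 37 genes, the deviation from the mean of the 11 animals used in the tests was 0.59 in YF 1070, 0.25 in YF 1072, -0.05 in YF 1069 and -0.36 in YF 1127. The OF had values of 0.08 (0233), -0.18 (0234), -0.01 (0245) and -0.48 (2258), and it was -0.09, 0.08 and 0.16 in contemporary cows 1068, 1128 and 1129, with 0.28 in cow 1111. The highest and the second lowest of these animals were thus both YF, with the same nuclear genome. The same mean over the epithelial markers was 0.71 in YF 1070, 0.26 in YF 1072, -1.07 in YF 1069 and 0.35 in YF 1127. In YF 1127 it was -0.75 for the endothelial and -1.45 for the smooth muscle markers, the lowest of the 12 animals in each. In OF 2258 it was -1.86 for the epithelial and 4.02 for the smooth muscle markers, and leukocyte markers stayed between -0.40 and 0.47 over the 12 animals. Both YF on slide 1 were above both YF on slide 2 in 27 of the 37 genes (73%, against 19% of all transcripts). The part of tissue composition and of the slide in these differences was not tested, and in biopsies fewer cells of a type and less RNA per cell cannot be told apart.

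**Figure D3:**
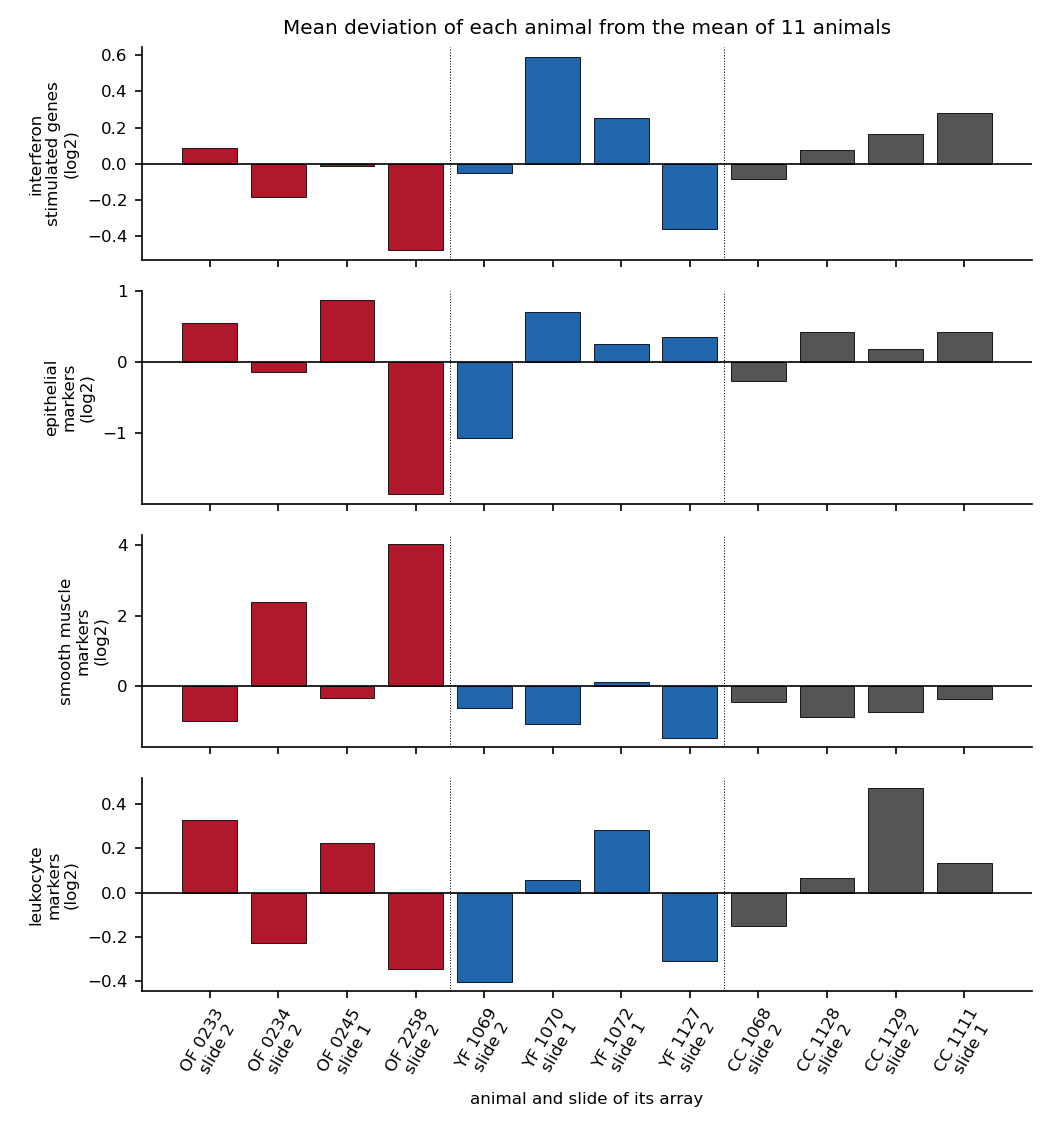
Mean deviation of each animal from the mean of the 11 animals used in the tests (log2) over the 37 interferon stimulated genes measured on all arrays, beside the same mean over lists of cell type markers. For the interferon stimulated genes the animals run from -0.48 in OF 2258 to 0.59 in YF 1070.

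The spread between animals of a group was wider in the interferon stimulated genes than in most transcripts. The median SD within groups was 0.44 over the 37 genes and 0.32 over the 18738 transcripts measured on all arrays. Of the 37 genes, 27 had an SD above the median of all transcripts and 15 were above the upper quartile of 0.50. With normexp background correction the medians were 0.30 over the genes and 0.23 over all transcripts, with 23 genes above the latter. Leaving out each animal in turn gave medians of 0.39 to 0.47 over the genes, the lowest without OF 2258 (0.30 over all transcripts), and 26 to 28 genes above the median of all. The 5 genes with the highest SD were IFI6 (0.77), IFI27 (0.70), MX1 (0.69), ISG15 (0.66) and OAS1X (0.63), and the 3 with the lowest were PARP9 (0.23), IFIT5 (0.22) and IFI35 (0.16). Between the lowest and the highest of the 12 animals the intensity of IFI6 differed 7.07-fold, that of MX1 6.19-fold and that of ISG15 4.64-fold, and that of IFI35 differed 1.45-fold. The intensity of ZBP1 differed 22.4-fold, but its lowest value, in OF 2258, was not well above background.

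The steady genes showed little room between animals. IFI35, a binding partner of NMI, had levels of 0.70, 0.66, 0.76 and 0.45 in OF, 0.66, 0.98, 0.69 and 0.70 in YF, and 0.49, 0.69 and 0.90 in the contemporary cows, with 0.83 in cow 1111. IFIT5, an RNA-binding protein of the IFIT family, had levels of 0.36, 0.41, 0.53 and 1.05 in OF, 0.81, 0.56, 0.53 and 0.43 in YF, and 0.72, 0.70 and 0.59 in the contemporary cows, with 0.38 in cow 1111. OF 2258, the lowest animal in many of the other genes, was the highest in IFIT5. PARP9, an ADP-ribosyltransferase that works with the ubiquitin ligase DTX3L, had levels of 0.23, -0.05, 0.18 and -0.48 in OF, 0.21, 0.36, 0.38 and 0.13 in YF, and 0.15, 0.28 and 0.48 in the contemporary cows, with 0.27 in cow 1111.

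**Figure D4:**
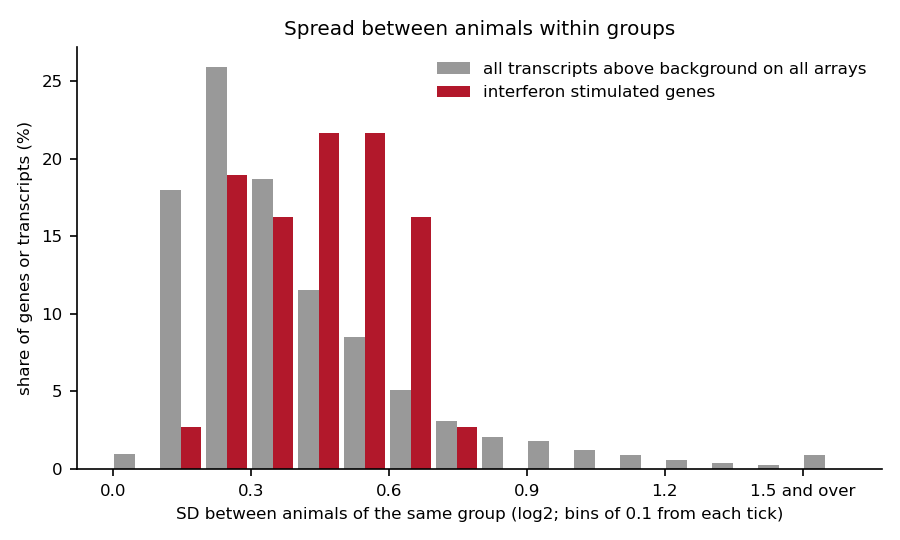
Distribution of the SD between animals within groups (log2) over the 18738 transcripts measured on all 12 arrays, with the 37 interferon stimulated genes among them marked. The median is 0.44 for the interferon stimulated genes and 0.32 for all transcripts.

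Whether the basal level of the interferon stimulated genes differed with age was compared between OF and YF over the 38 genes above background on every array of either group, 37 of them measured on all arrays and ZBP1 on all YF but 3 of the 4 OF. The mean was lower in OF than in YF for 31 genes and higher for 7 (27 and 11 with normexp background correction, which also raised the share of all transcripts higher in OF to 63.8%), where 51.7% of all 19755 transcripts tested were higher in OF, and the median difference was -0.35 against 0.01 over all transcripts. For none of the 38 genes was the difference significant. In limma 0 genes passed an adjusted p of 0.05 (smallest 0.999), 0 passed an unadjusted p of 0.05 (2.42% of all transcripts did), and the animals of OF and YF overlapped in all 38 (1.53% of all transcripts did not overlap). No transcript of the whole array passed the adjusted p. Cell type markers also differed by group mean, and 11 of 11 smooth muscle markers had a higher mean in OF (median 1.96). For 8 of 10 epithelial markers (median -0.26) and 8 of 8 stromal markers (median -0.27) the OF mean was lower. No marker of these lists separated the groups without overlap. Among OF, only animals 2258 (4.02) and 0234 (2.38) had a positive mean smooth muscle deviation, unlike 0245 (-0.33) and 0233 (-0.99). The epithelial deviation was negative for animals 2258 (-1.86) and 0234 (-0.15) but positive for 0233 (0.56) and 0245 (0.87). The part of these markers in the result was not tested.

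The lower means in OF moved with single animals and with the slide. With the slide as a block in the fit, 30 of 38 genes were lower in OF, with a median of -0.22. With the arrays of slide 2 alone, 18 genes were higher and 20 lower in OF, with a median of -0.02. On slide 1, with 1 OF and 2 YF and so no test, 36 of 38 genes were lower in OF, with a median of -0.34. Without YF 1070 the median was -0.14, with 12 genes higher and 26 lower, and without OF 2258 it was -0.17, with 8 higher and 30 lower. Without YF 1127 it was -0.48, with 34 genes lower and 6 past an unadjusted p of 0.05, where 2.66% of all transcripts did. With each array weighted by its fit to its group, 20 of the 38 genes passed an unadjusted p of 0.05, where 11% of all transcripts did, with 0 past an adjusted p. The weights of that fit ran from 0.357 for OF 2258 to 6.91 for OF 0234.

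By role, all 6 sensors and effectors that bind foreign RNA or DNA had a lower mean in OF, with a median difference of -0.27. The sign of EIF2AK2 turned in its brighter probe (0.15), with array weights and with normexp, and that of ADAR turned with the slide as a block, on slide 2 alone, in its brighter probe, with normexp and without each of OF 2258, YF 1069 and YF 1070. That of DDX58 turned on slide 2 alone (0.30). Among these sensors and effectors the difference was -0.44 ± 0.31 for IFIH1 (MDA5, a sensor of long double-stranded RNA), -0.28 for DHX58 (LGP2, which modulates the other sensors) and -0.27 for DDX58 (RIG-I, a sensor of uncapped RNA ends). It was -0.12 ± 0.19 for EIF2AK2, the kinase PKR that stops translation, and -0.07 for ADAR, an RNA editing enzyme. ZBP1 entered the test through YF, where its level was higher, and its difference of -1.36 includes OF 2258, where it was not well above background. Without OF 2258 the difference was -0.76. ZBP1 had levels of -4.76, -5.64, -5.41 and -7.71 in OF and -4.66, -3.22, -4.28 and -5.90 in YF, with the groups overlapping. The other transcripts of ZBP1 differed by -0.12 and 0.10.

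For ISG15 and its enzymes, all 6 genes had a lower mean in OF with a median of -0.37. On slide 2 alone ISG15 (0.17), TRIM25 (0.10) and USP18 (0.03) were higher in OF, while HERC5, HERC6 and UBA7 stayed lower. HERC5 (-0.51 ± 0.27) and HERC6 (-0.39), neighbours on chromosome 6, belong to a family of ligases that join ISG15 to proteins, and UBA7 (-0.35) is the enzyme that activates it. The levels of HERC5 were 0.17, -0.18, 0.19 and -1.06 in OF and 0.12, 0.34, 0.40 and 0.30 in YF, so that OF 2258 lay below all others. USP18 differed by -0.19 ± 0.20 and TRIM25, a ubiquitin ligase for RIG-I, by -0.05. The 4 ADP-ribosyltransferase and DTX3L genes were also lower in OF in mean, PARP12 by -0.43, PARP14 by -0.36, DTX3L by -0.35 and PARP9 by -0.30 ± 0.18. In DTX3L the duplicates of the brighter probe, above background on 12 arrays, gave -0.15 and -0.12. Those of the dimmer probe, above background on 5 and 4 arrays, gave -0.77 and -0.37. PARP9, DTX3L and PARP14 lie side by side on chromosome 1 between 67559268 and 67659266.

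Of the 5 IFI genes, 4 had a lower mean in OF, with differences of -0.75 ± 0.46 for IFI27, -0.74 ± 0.49 for IFI6, -0.53 ± 0.34 for IFI44 and -0.12 ± 0.14 for IFI35. IFI44L, next to IFI44 on chromosome 3, differed by 0.10. Its positive mean rested on a probe at 0.59, whose duplicate of the same sequence gave -0.07. The duplicates of its other probe gave -0.061 and -0.057. In the group of other effectors, the difference was -0.48 ± 0.42 for XAF1, which binds an inhibitor of apoptosis, -0.46 ± 0.21 for PLAC8, -0.43 for TRIM21, an antibody receptor inside the cell, and -0.40 for LGALS3BP, a secreted ligand of galectins. EPSTI1 differed by -0.19, the nuclear body protein SP110 by -0.06, and PML, the scaffold of nuclear bodies, by 0.27. In XAF1 the 4 OF had levels of 1.54, 1.12, 1.61 and -0.29 and the 4 YF 1.27, 2.04, 1.40 and 1.19, so OF 0233 and OF 0245 lay inside the range of YF, OF 0234 just below it and OF 2258 far below it.

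The IFIT genes form a cluster on chromosome 26 between 11069934 and 11127464, and the 3 tested had a higher mean in OF. IFIT2 differed by 0.43 ± 0.25 between OF and YF, IFIT3 by 0.06 and IFIT5 by 0.01, of which IFIT3 and IFIT5 turned in sign with the slide as a block, and IFIT1 was too close to background to be tested. IFIT2 had levels of -3.17, -3.72, -4.28 and -4.12 in OF and -4.17, -4.15, -4.10 and -4.57 in YF, so that OF 0233 and OF 0234 were above all YF. IFIT1 had levels of -6.29, -6.69, -7.87 and -7.80 in OF, -6.92, -6.34, -6.59 and -8.08 in YF, and -6.91, -8.63 and -5.05 in the contemporary cows, with -7.32 in cow 1111, where only the 4 arrays named above were above background. OAS2 (0.25) and the exonuclease ISG20 (0.20) also had a higher mean in OF, both in part from dim probes. In OAS2 the brighter probe gave 0.13, and the dimmer, above background on 4 arrays, gave 0.36. The first ISG20 probe was above background on 0 arrays, and the duplicates of the second gave 0.19 and 0.69.

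By FCROS, the ranking method used in the study's methods, 3 of the 42 genes were lower in OF and 0 were higher, where 2.06% of all transcripts were lower and 2.88% higher. These were ZBP1, with a ratio of OF to YF of 0.396, IFI27 (0.552) and IFI6 (0.646). The ratio of ZBP1 rests in part on OF 2258, where it was not well above background. FCROS ranks the 16 ratios of an OF to a YF and does not estimate the spread between animals as limma does. Its f-value is set by the mean and SD of the average ranks over all transcripts, so some transcripts are called even where nothing changed. On simulated data without any change it called 1439 transcripts, against 1300 between the measured OF and YF. The simulation drew each transcript independently, unlike the arrays, so these counts do not measure its error rate here. The 3 calls are only a description. Leaving out each animal in turn gave between 1 and 10 genes, with 10 without YF 1127 and 1 without each of OF 0234, OF 2258, YF 1070 and YF 1072.

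**Figure D5:**
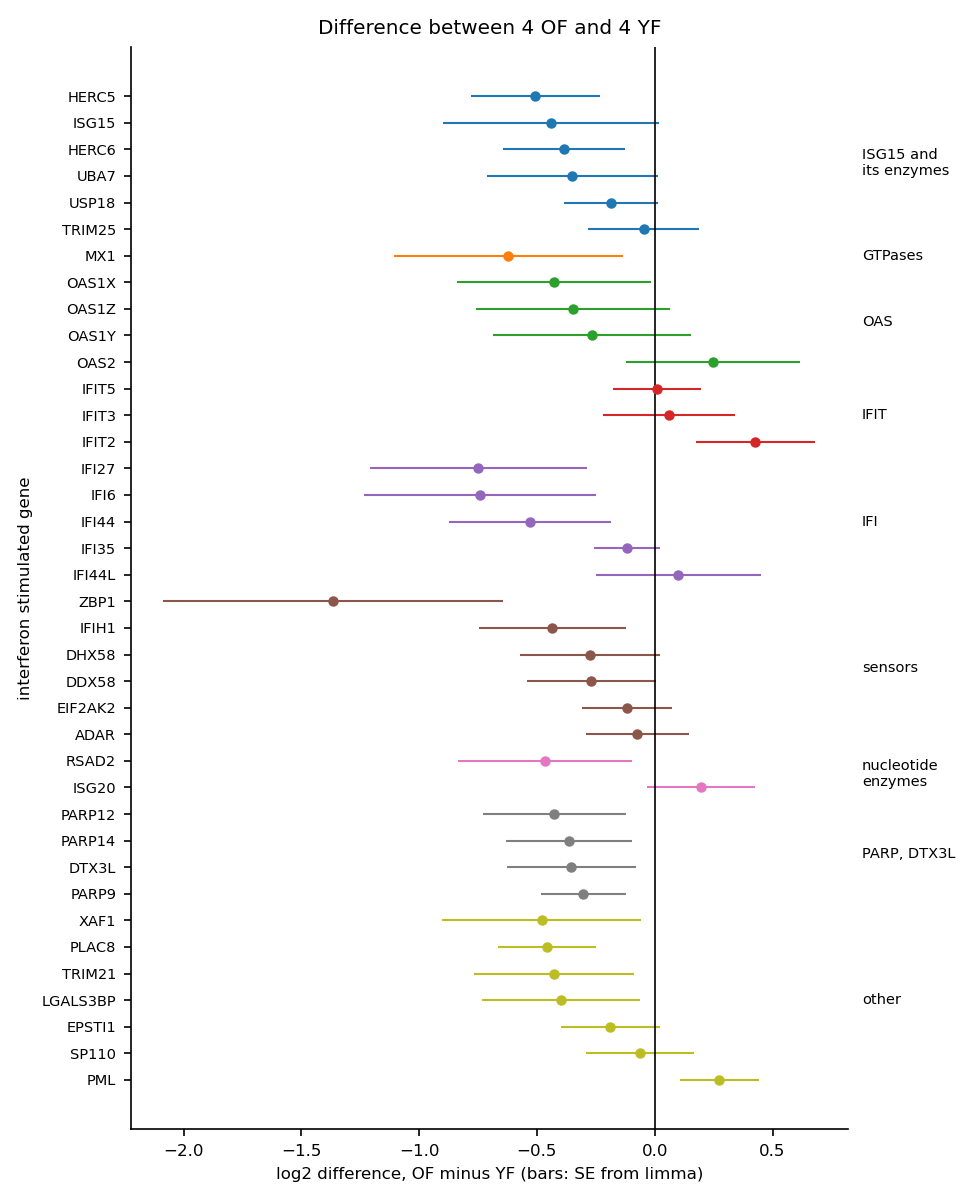
Difference in mean level between OF and YF (log2, OF minus YF) for each interferon stimulated gene tested, with bars for the SE and genes ordered by role. The differences run from -1.36 for ZBP1, which was not well above background in OF 2258, to 0.43 for IFIT2, 31 of 38 lie below 0, and none passed limma's adjusted p.

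The components that carry the interferon signal were also measured. Of 11 receptor and signal transducer genes tested, 4 had a higher and 7 a lower mean in OF, with a median difference of -0.05. The receptor chains differed by 0.29 (IFNAR1) and 0.13 (IFNAR2), the kinases by -0.34 (JAK1) and -0.10 (TYK2), and the transcription factor IRF9 by -0.05, and SOCS3, a feedback inhibitor of JAK signalling, differed by 0.91 ± 0.45. The levels of SOCS3 were -5.06, -4.74, -4.23 and -2.96 in OF and -5.26, -4.48, -5.31 and -5.60 in YF, highest in OF 2258. STAT2 was not tested because it was above background on only 2 arrays. Of 8 interferon regulatory factor genes 2 had a higher and 6 a lower mean, with a median of -0.08. None of these 19 genes passed an unadjusted p of 0.05. On slide 2 alone 6 receptor and signal transducer genes were higher in OF and 5 lower, with a median of 0.11. Of the regulatory factors 4 were higher there and 4 lower, with a median of 0.03. Without OF 2258 the medians of the lists were -0.08 and -0.05.

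A further list of interferon responsive genes outside the 44, including antigen presentation genes and chemokines, had 17 genes tested, of which all 17 had a lower mean in OF, with a median of -0.29. This list was also chosen with earlier results of these data known, so it is not independent support. With the arrays of slide 2 alone, 12 of the 17 were lower (median -0.14), without OF 2258 14 were (median -0.15) and without YF 1070 13 were (median -0.23). CXCL9, a chemokine that attracts T cells and is induced mainly by interferon gamma, differed by -1.07 ± 0.36 and was the only one past an unadjusted p of 0.05 in limma, which 2.42% of all transcripts passed (adjusted p = 0.999). Its levels were -4.21, -5.02, -4.69 and -5.56 in OF and -4.35, -3.77, -3.02 and -4.08 in YF, with only OF 0233 inside the range of YF. B2M, the light chain of MHC class I, did not overlap between the groups (1.53% of all transcripts did not), with 4.78, 4.60, 4.74 and 4.67 in OF and 4.87, 4.89, 4.86 and 5.23 in YF, a difference of -0.27 ± 0.14 (SE; limma, adjusted p = 0.999).

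The contemporary cows were set against YF and then OF, so both comparisons share the same 3 cows. Of 39 genes tested, 15 had a higher and 24 a lower mean in the 3 contemporary cows than in YF, with a median difference of -0.07, against -0.02 over all transcripts, of which 45.4% were higher. MX2, above background in 3 of the 4 YF, entered the test only through the contemporary cows and counts among the 15. In limma 0 genes passed an adjusted p of 0.05 (0 of all transcripts did) and 1 passed an unadjusted p of 0.05, where 3.03% of all transcripts did. All 3 contemporary cows were on slide 2, and against the 2 YF of slide 2 alone 36 genes were higher and 3 lower, with a median of 0.19. There 4 genes were past an unadjusted p of 0.05, where 2.38% of all transcripts were. Without YF 1070 the median was 0.06, with 27 genes higher and 12 lower, and without contemporary cow 1068 it was 0.00094, with 20 higher and 19 lower. Slide 2 alone leaves out YF 1070 and YF 1072, so the slide and these animals cannot be told apart.

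Against OF, 32 of 39 genes had a higher mean in the contemporary cows and 7 a lower mean (26 and 13 with normexp), with a median of 0.19 against -0.04 over all transcripts, of which 43.6% were higher. MX2 and ZBP1, above background in 2 and 3 of the 4 OF, entered the test only through the contemporary cows. Both count among the 32, and ZBP1 had the largest difference, 1.11. In limma 0 genes passed an adjusted p of 0.05 (0 of all transcripts did) and 2 an unadjusted p of 0.05, where 4.57% of all transcripts did. Without OF 2258, 26 genes were higher and the median was 0.06. In the same comparison 11 of 11 smooth muscle markers had a lower mean in the contemporary cows (median -1.99) and 8 of 8 stromal markers a higher mean (median 0.50), and their part in the result was not tested. RSAD2 did not overlap between the groups (2.86% of all transcripts were higher without overlap), with a difference of 0.48 ± 0.19 (SE; limma, adjusted p = 0.912). The mean of RSAD2 was -2.08 ± 0.09 in the contemporary cows (SD, n = 3).

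EIF2AK2 was lower in the contemporary cows than in both other groups without overlap, where 2.32% of all transcripts were lower than YF and 2.93% lower than OF in this way. Its levels were -4.41, -4.40, -4.90 and -4.58 in OF, -4.15, -4.31, -4.83 and -4.53 in YF, and -4.90, -5.23 and -5.16 in the contemporary cows, with -5.15 in cow 1111. OF 0245 and contemporary cow 1068 were barely apart, at -4.896 and -4.9. The difference was -0.64 ± 0.20 from YF (SE; limma, adjusted p = 1, exact permutation p = 0.0571) and -0.53 ± 0.19 from OF (SE; limma, adjusted p = 0.912, exact permutation p = 0.0571), and 0.0286 is the smallest two-sided p that 3 against 4 animals can give. The difference came mostly from the dimmer probe, which was above background on 5 arrays and on none of the contemporary cows. In the brighter probe, above background on all 12 arrays, the difference was -0.14 from YF and -0.29 from OF. There the groups overlapped, with -3.13, -3.47 and -3.30 in the contemporary cows, -3.33 in OF 0233 and -3.26 in YF 1127.

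The probes of IFIH1 differed in the contemporary cows. In its first probe cows 1128, 1129 and 1111 had levels of -0.97, -1.08 and -1.01, while cow 1068 had -2.96 and the 8 OF and YF lay between -4.46 and -2.63. In its second probe the same contemporary cows had levels of -4.26, -3.86 and -4.03, within the range of OF and YF, -5.32 to -3.82. Both probes were above background on all 12 arrays, so the higher level of IFIH1 in 3 of the contemporary cows rested on 1 of its 2 probes, and its cause was not tested.

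A second transcript named PLAC8 on the array (ENSBTAT00000012987, chromosome 6, 99721321 to 99754969 in UMD3.1) is not the transcript that stands for the gene above, and was chosen for description after its values were seen. Its levels were -3.58, -4.22, -3.18 and -5.56 in OF, -3.58, -2.62, -3.59 and -2.88 in YF, and -1.40, -2.42 and -0.14 in the contemporary cows, with -2.63 in cow 1111. All 3 contemporary cows used were above all 8 OF and YF (1.51% of all transcripts were higher than YF without overlap, and 2.86% higher than OF), while cow 1111 lay among the YF. The difference was 1.85 ± 0.52 from YF (SE; limma, adjusted p = 1) and 2.81 ± 0.69 from OF (SE; limma, adjusted p = 0.881). The first transcript of PLAC8, 99655644 to 99690417 on the same chromosome, had levels of -0.42, -0.12 and 0.38 in the contemporary cows and -0.43, 0.23, 0.24 and -0.37 in YF, and these overlapped.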

How the data were processed

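Endometrial RNA of 12 animals was hybridized to 12 1-colour arrays. The authors deposited Feature Extraction 10.7.3.1 output with the Cy-3 intensity of each spot, background-corrected but not normalized between arrays. The files hold no counts, so the number of arrays limits the precision. The interferon stimulated genes and the other gene lists were chosen with earlier results of these data known.

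The log2 processed intensity minus the 75th percentile of the array was averaged over spots of a probe, then over probes of a transcript. The 1319 controls and 66 probes marked as outliers were left out, which kept 61333 probes. Gene names and UMD3.1 positions are those of the array's annotation, with OAS1X matched through a RefSeq accession. Transcripts with a probe above background on every array of either group were tested with limma 3.58.1 in R 4.3.3 (lmFit and eBayes, two-sided, Benjamini-Hochberg over all transcripts tested: 19755 for OF and YF, 19993 for contemporary cows and YF, 19914 for contemporary cows and OF), which was tested on simulated data, as was FCROS. Each fit used the arrays of its own pair of groups. FCROS was coded from its description and run on all 26323 transcripts (16 ratios of OF to YF, a trim of 0.25, a fold of 1.5). The replicate was the animal.

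Values of every animal are given for ISG15, MX1, MX2, RSAD2, the OAS1 genes, USP18, IFI27 and IFIT1, for genes whose groups did not overlap at an unadjusted p of 0.05, for the 5 genes of widest and 3 of narrowest spread, and, within the group, for genes with an animal far from the others. Others named with every animal's value were chosen after their values were seen. The alternatives were quantile normalization, centring on the median, normexp (offset 50), no filter, the brightest probe, the slide as a block, slide 2 alone, all groups in 1 fit, array weights, cow 1111 included and each animal left out. Probes below background left out and slide 1 alone were added after seeing the data.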

Additional observations from a re-analysis of the deposited data

Results flagged for a closer look

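In 5 of 126 sets of a gene and a group (3.97%), 1 animal lay far from the other 3, where chance gives about 1 in 20 such sets. Contemporary cow 1068 was low in DDX58 (-3.58, against -2.15 to -1.87 in the other contemporary cows), in IFIH1 (-3.88, against -2.62 to -2.47) and in TRIM21 (-1.23, against -0.41 to -0.27). For IFIH1 the gap lay mostly in the first probe (-2.96, against -1.08 to -0.97), with -4.79 against -4.26 to -3.86 in the second. YF 1070 was high in IFI35 (0.98, against 0.66 to 0.70 in the other YF). YF 1127 was low in IFIT2 (-4.57, against -4.17 to -4.10).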

How the results depend on the processing

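The number of interferon stimulated genes at an adjusted p of 0.05 was 0 in all 3 comparisons under every alternative tested. Between OF and YF, the number at an unadjusted p of 0.05 was 20 with array weights, 3 with normexp, 1 with the brightest probe, and 0 to 6 with each animal left out in turn. Over all transcripts the share at that p was 11% with array weights, 2.78% with normexp, 2.43% with the brightest probe and 2.66% without YF 1127. FCROS gave 1 gene without trimming and 1 to 10 with each animal left out. The median difference was -0.020 on slide 2 alone. Signs turned with array weights for EIF2AK2 (0.091), IFI44L (-0.17), IFIT5 (-0.11) and OAS2 (-0.39). On slide 1 alone they turned for IFI44L (-0.017), IFIT2 (-0.16), IFIT3 (-0.36), IFIT5 (-0.010), ISG20 (-0.16), OAS2 (-0.12) and TRIM25 (0.016). On slide 2 alone they turned for ADAR (0.028), DDX58 (0.30), EPSTI1 (0.10), IFI44 (0.072), IFIT5 (-0.011), ISG15 (0.17), OAS1X (0.32), OAS1Y (0.41), OAS1Z (0.30), RSAD2 (0.017), SP110 (0.092), TRIM25 (0.10) and USP18 (0.031). With the slide as a block they turned for ADAR (0.0016), IFIT3 (-0.022), IFIT5 (-0.011), SP110 (0.00358) and TRIM25 (0.070). With the brightest probe they turned for ADAR (0.029), EIF2AK2 (0.15) and IFI44L (-0.057), with normexp for ADAR (0.023), DTX3L (0.035), EIF2AK2 (0.11) and SP110 (0.051), and without probes below background for EIF2AK2 (0.15). Leaving out each animal gave -0.27 to 0.035 for ADAR, -0.24 to 0.32 for IFI44L, -0.12 to 0.27 for IFIT3, -0.15 to 0.085 for IFIT5, -0.74 to 0.000140 for ISG15, -0.59 to 0.12 for OAS1Y, -0.23 to 0.11 for SP110 and -0.21 to 0.12 for TRIM25. Between contemporary cows and YF the number at an unadjusted p of 0.05 was 4 on slide 2 alone and with the slide as a block, 3 with cow 1111, 2 with array weights and with quantile normalization, 0 without probes below background, and 1 to 2 with each animal left out. The share of all transcripts was 2.38% on slide 2 alone, 3.65% with the slide as a block, 3.43% with cow 1111 and 6.56% with array weights. Between contemporary cows and OF the number at an unadjusted p of 0.05 was 4 on slide 2 alone and with the slide as a block, 7 with cow 1111, 12 with array weights, 1 without probes below background, and 1 to 4 with each animal left out. The share of all transcripts was 5.32% on slide 2 alone and with the slide as a block, 5.38% with cow 1111 and 16.3% with array weights. The cause of these changes was not tested. Normexp moved the share of all transcripts that were higher in OF than in YF from 51.7% to 63.8%, and for the interferon stimulated genes it gave 11 higher and 27 lower. No paired analysis was possible because the groups share no animal numbers.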
